A study of Mus musculus with 4 samples.

Results

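The genes described here are 31 genes of skeletal muscle, taken by symbol from the 24411 genes of the deposited count table, and all 31 were in it. They were chosen by name and by role, with earlier results of these data known. Of them, 19 encode parts of the sarcomere, 3 attach or repair it and 5 release, store or take up calcium. A further 2 serve energy and oxygen supply and 2 are transcription factors. The study sequenced messenger RNA of mouse cochlear tissue at postnatal day 7 in 4 pools, each holding both cochleas of 2 to 3 pups. In 2 pools the animals were heterozygous and in 2 homozygous for an Otof knockout; otoferlin, its product, senses calcium at the release sites of inner hair cells. Every animal thus carried a knockout allele, and strain and sex are not given in the labels. The question asked of the muscle genes was whether Ryr1 and Xirp1, both lower in the homozygous pools, followed the contractile genes or differed from them.

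Skeletal muscle contracts when myosin heads of the thick filament pull on actin of the thin filament, a step that troponin permits once calcium binds it. The calcium comes from the sarcoplasmic reticulum, where the ryanodine receptor Ryr1 opens under the control of the voltage sensor Cacna1s, calsequestrins such as Casq1 hold the store and the pump Atp2a1 refills it. Xirp1 and Xirp2 carry Xin repeats, which bind actin filaments, and Xirp1 is known from sites of muscle attachment and repair. The small muscles of the middle ear lie close to the cochlea. Ryr1 is also known outside muscle, for example from Purkinje neurons of the cerebellum.

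The pools held 36060275 and 32453532 estimated counts (heterozygous replicates 1 and 2) and 38090726 and 31509349 (homozygous replicates 1 and 2). Levels are given as CPM, estimated counts relative to 1e+06 counts of a pool, on library sizes scaled by trimmed mean of M-values, and a count of 0 allows up to 3 counts, which came to 0.0776 to 0.0944 CPM. Intervals and limits cover counting error only. Otof itself had 86 and 83 counts in the heterozygous against 5 and 9 in the homozygous pools, which is the order the labels give. Of 15 markers of cochlear cell types 9 passed the filter on low counts, and between 1 and 4 were at 0 in a pool, among them Pou4f3, Slc26a5 and Ocm of hair cells and Kcne1 of the stria vascularis. The pools differed in other tissues too: the smooth muscle genes Acta2, Myh11 and Myocd were more than 4-fold higher in heterozygous replicate 1 than in heterozygous replicate 2.

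The promoters shown here, with the bases that reach into annotated exons left off, are those of Ryr1 as the member that the question turns on, of its calcium-store partner Casq1, and of the contractile genes Acta1 and Myh8 for contrast. The sequences are from RefSeq on GRCm38.p6, 5′ to 3′ on the gene's own strand, and capitals mark the motifs searched: CAGCTG, a palindromic E-box of the kind that myogenic factors bind, the MEF2 site and the CArG box. They lie at chr7:29125180-29125401 on the minus strand (Ryr1), chr1:172219896-172220145 on the minus strand (Casq1), chr8:123894776-123895025 on the minus strand (Acta1) and chr11:67276874-67277123 on the plus strand (Myh8).
Ryr1: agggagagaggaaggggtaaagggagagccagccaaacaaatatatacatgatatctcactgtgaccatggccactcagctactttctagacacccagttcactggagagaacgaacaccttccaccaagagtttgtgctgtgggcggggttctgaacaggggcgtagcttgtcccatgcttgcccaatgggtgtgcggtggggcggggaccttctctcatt
Casq1: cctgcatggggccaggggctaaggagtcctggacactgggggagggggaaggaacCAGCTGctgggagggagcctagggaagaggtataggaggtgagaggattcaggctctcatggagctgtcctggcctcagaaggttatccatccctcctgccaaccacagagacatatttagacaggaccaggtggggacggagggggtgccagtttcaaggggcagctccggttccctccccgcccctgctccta
Acta1: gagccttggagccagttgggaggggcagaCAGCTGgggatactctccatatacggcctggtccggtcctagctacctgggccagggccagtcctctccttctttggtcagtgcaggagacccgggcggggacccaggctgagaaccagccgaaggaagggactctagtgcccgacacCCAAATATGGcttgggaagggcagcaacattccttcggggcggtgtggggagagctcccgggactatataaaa
Myh8: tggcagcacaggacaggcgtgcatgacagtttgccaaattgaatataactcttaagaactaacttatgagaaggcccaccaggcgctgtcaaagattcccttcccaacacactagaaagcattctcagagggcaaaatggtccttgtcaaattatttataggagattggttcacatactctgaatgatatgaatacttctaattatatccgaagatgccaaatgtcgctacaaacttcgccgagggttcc
The Casq1 window holds 1 E-box, the Acta1 window 1 E-box and 1 CArG box, and the Ryr1 and Myh8 windows hold none of these letters. On either strand, CAGCTG was found in the 250 bases before the start of 11 of the 25 members with a promoter in the table, and in 13% of all 32851 promoters. The MEF2 site was found in 2 of these members (0.508% of all promoters) and the CArG box in 2 (1.47%). A match describes the letters and is not a bound site.

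Of the 19 sarcomere genes 8 had fewer than 20 counts in every pool, among them some that define muscle. Acta1, skeletal alpha-actin and one of the most abundant messengers of muscle fibres, had 14 and 9 counts in the heterozygous against 2 and 3 in the homozygous pools. The homozygous pools were lower without overlap, and DESeq2 gave a log2 fold change of -2.23 ± 1.38 with an adjusted p of 0.616 at these few counts. In pooled tissue, fewer cells of a type and less messenger per cell cannot be told apart. The muscle creatine kinase Ckm had 6 and 4 against 0 and 5 counts, and myoglobin, Mb, had 7 and 3 against 2 and 0. Acta1, Ckm and Mb did not pass the filter on low counts. The fast troponin C gene Tnnc2 had a single count in all 4 pools together. Of the regulators, Myod1 had 1 and 0 against 0 and 1 counts, and Myog, myogenin, 7 and 4 against 5 and 0, so both were at or near 0. Of the 19 sarcomere members 12 passed the filter, and of all 31 members 19 did. In every pool 11 of the 31 had at most 15 counts.

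**Figure D1:**
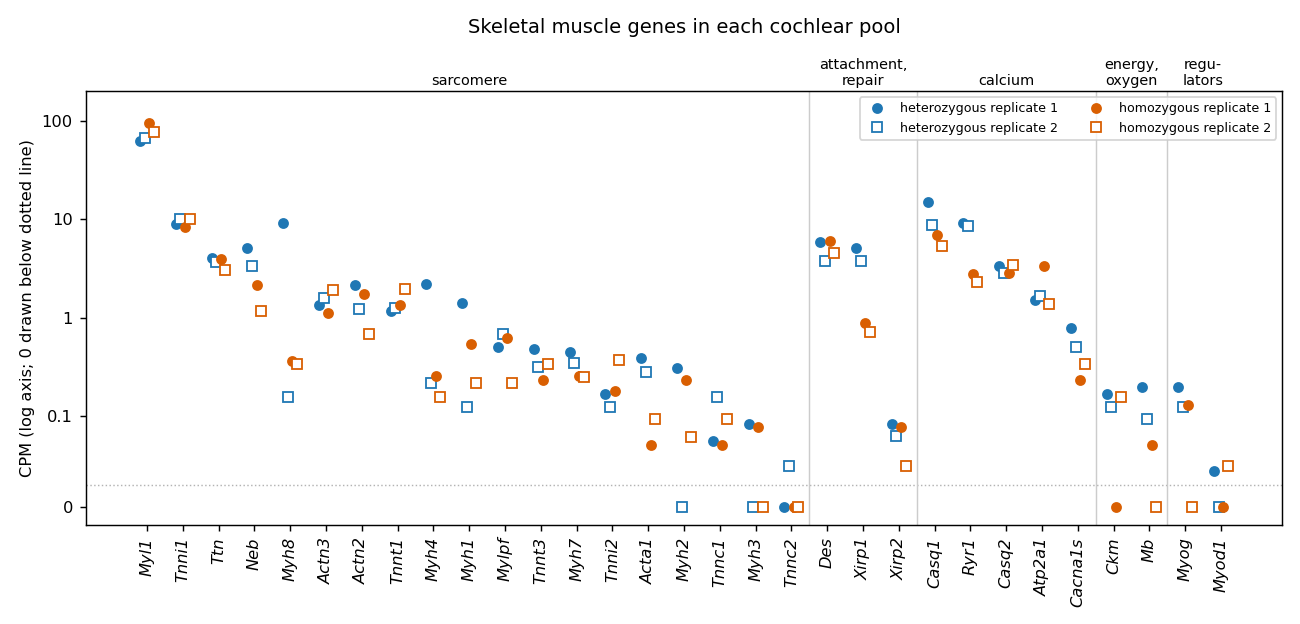
Level of each of the 31 members in each of the 4 pools, in CPM on a log axis, with values of 0 drawn below the dotted line. Filled symbols are replicate 1 and open symbols replicate 2, blue heterozygous and orange homozygous. Myl1 stands above all others at 62.5 to 93.8 CPM, Myh8 has 1 high pool, and Ryr1 and Xirp1 fall into separate blue and orange pairs.

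Myl1 made up most of what the sarcomere list held. This gene of a fast skeletal myosin light chain had 2222 and 2097 counts in the heterozygous against 3626 and 2471 in the homozygous pools. Its levels of 62.5 and 66.0 against 93.8 and 77 CPM were higher in both homozygous pools, without overlap. The log2 fold change, homozygous over heterozygous, was 0.41 ± 0.12 (SE), and the adjusted p was 0.274 in edgeR and 0.118 in DESeq2, so it passed neither. Myl1 held 62.3% to 81.3% of the summed CPM of the 19 sarcomere members in a pool. Per kilobase of annotated exon it averaged 36.1 CPM over the pools, followed by Casq1 at 4.60, Tnni1 at 2.58, the intermediate filament gene Des, desmin, at 1.34 and the cardiac calsequestrin gene Casq2 at 1.14. Acta1 stood at 0.134 CPM per kilobase, far below its light chain companion. In the transcript annotation, 14.5% of the 31-base words of Myl1 also occur in its pseudogene Mylf-ps, so some of its reads may be assigned either way.

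The other sarcomere genes that could be measured passed neither test at an adjusted p of 0.05. Tnni1, the slow troponin I gene, had 8.85 and 10 CPM in the heterozygous against 8.36 and 9.94 CPM in the homozygous pools, with overlapping pools and a log2 fold change of -0.04 ± 0.17. Ttn, titin, the spring that spans the sarcomere, had 4.08 and 3.71 against 3.98 and 3.08 CPM. Its log2 fold change was -0.14 ± 0.24. Actn3, the fast-fibre alpha-actinin gene of the Z-disc, had 1.35 and 1.6 against 1.11 and 1.93 CPM (0.04 ± 0.39 on the log2 scale), and Tnnt1, the slow troponin T gene, had 1.18 and 1.26 against 1.35 and 1.96 CPM (0.44 ± 0.34). Tnnt1 was higher in both homozygous pools, and neither gene passed a test.

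Neb, nebulin, which runs along the thin filament, was lower in both homozygous pools, as were Acta1 and Myh7. Of the 12 sarcomere members tested 9 had a log2 fold change below 0, beside 7405 of all 15359 genes tested. Without overlap of the pools, 2 of the 12 were lower and 2 higher. Neb had 5.06 and 3.33 CPM in the heterozygous against 2.17 and 1.18 CPM in the homozygous pools, so that the genotypes did not overlap. The log2 fold change was -1.31 ± 0.41, with an unadjusted p of 0.0240 in edgeR, while the adjusted p was 0.301 there and 0.139 in DESeq2. Actn2, the alpha-actinin gene of heart and oxidative fibres, had overlapping pools (2.14 and 1.23 against 1.76 and 0.686 CPM). So did Mylpf, a fast regulatory light chain gene, with 18 and 22 against 24 and 7 counts, and Tnnt3, the fast troponin T gene, with 17 and 10 against 9 and 11. The fast troponin I gene Tnni2 (6 and 4 against 7 and 12 counts, higher without overlap) and the slow troponin C gene Tnnc1 (2 to 5 counts) did not pass the filter.

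Among the myosin heavy chains, Myh8, Myh4 and Myh1 were high in a single pool. Myh8, the perinatal heavy chain, had 325 counts in heterozygous replicate 1 and 5, 14 and 11 counts in heterozygous replicate 2 and homozygous replicates 1 and 2. Myh4, the fast type IIB chain, had 79 counts in heterozygous replicate 1 and 7, 10 and 5 in the other pools, and Myh1, of type IIX, had 50 against 4, 21 and 7. The log2 fold change was -2.55 ± 1.21 for Myh4 in DESeq2 (adjusted p = 0.342) and -0.996 ± 1.11 for Myh1 in edgeR. Heterozygous replicate 1 was 58.1-fold above heterozygous replicate 2 in Myh8 (95% exact interval of counting error 24.6 to 180), 10.1-fold in Myh4 (4.67 to 25.9) and 11.2-fold in Myh1 (4.10 to 42.6). Myh2, of type IIA, had 11 counts in heterozygous replicate 1 and 0, 9 and 2 in the others, and Myh3, the embryonic chain, had 3, 0, 3 and 0. Myh7, the slow and cardiac chain, had 16 and 11 counts against 10 and 8, without overlap and with a log2 fold change of -0.64 ± 0.49. Summed over Myh1, Myh2, Myh3, Myh4, Myh7 and Myh8, the level was 13.6 CPM in heterozygous replicate 1 and 0.849, 1.73 and 1.03 CPM in the other pools.

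Of all 15359 genes tested, 0.905% were more than 4-fold higher in heterozygous replicate 1 than in replicate 2. Of the 19 tested members 2 were, Myh1 and Myh8, and of the untested Myh4 was. Myh2, Myh3 and Myod1 had a count of 0 in replicate 2, and no fold is given for them. Between genotypes, Myh8 had a log2 fold change of -3.71 ± 1.67 and the adjusted p was 0.437 in edgeR and 0.466 in DESeq2. That value rests on heterozygous replicate 1: without it the log2 fold change was 1.15 in edgeR and 1.17 in DESeq2. The chains share sequence, with 42.9% of the 31-base words of Myh1, 34.5% of Myh2, 30.4% of Myh4 and 18.6% of Myh8 also found in other genes, with Myh1, Myh2, Myh4 and Myh8 the main partners of one another. How the counts split among them is therefore uncertain.

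Ryr1 was the first of the 2 members that fell by DESeq2. The gene lies on chromosome 7 (29003344 to 29125179, minus strand, GRCm38), and it had 329 and 273 counts in the heterozygous against 107 and 74 in the homozygous pools. Its levels were 9.25 and 8.59 CPM against 2.77 and 2.31 CPM, or 8.92 ± 0.47 and 2.54 ± 0.33 CPM (mean ± SD, n = 2). The pools of a genotype lay close together and the genotypes were far apart, at 3.51-fold. The log2 fold change was -1.81 ± 0.20, and the adjusted p was 0.107 in edgeR and 1.33e-07 in DESeq2. Without heterozygous replicate 1 the DESeq2 log2 fold change was -1.75, close to that of all pools. The call was lost in that fit. It was kept without heterozygous replicate 2 (-1.87), a fit that also has fewer heterozygous pools, and the reason was not tested. Only 3.46% of its 31-base words occur in other genes, and its exons overlap Gm26604 and Gm44408 on the opposite strand, whose reads cannot be told apart without strand.

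Xirp1 fell by DESeq2 as well, and by more. On chromosome 9 (120013755 to 120023598, minus strand, GRCm38), it had 181 and 121 counts in the heterozygous against 34 and 23 in the homozygous pools. The levels were 5.09 and 3.81 CPM against 0.879 and 0.717 CPM, or 4.45 ± 0.91 and 0.798 ± 0.12 CPM (mean ± SD, n = 2). Every heterozygous pool was above every homozygous pool, at a 5.54-fold difference. The log2 fold change was -2.47 ± 0.30, and the adjusted p was 0.114 in edgeR and 5.29e-06 in DESeq2. Without heterozygous replicate 1 the DESeq2 adjusted p was 0.201 at -2.24. None of its 31-base words is shared with another annotated gene, Xirp2 included. Its paralogue Xirp2 was almost absent, with 3 and 2 against 3 and 1 counts, and Des, desmin, had overlapping pools (5.82 and 3.77 against 6.0 and 4.55 CPM).

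The authors' deposited table lists 343 genes, and the 2 members in it are Ryr1, with a log2 fold change of -1.80 in the authors' deposited table, and Xirp1, with -2.47 there. Across all genes edgeR called 0 of 15359 at an adjusted p of 0.05 (2038, or 13.3%, had an unadjusted p under 0.05), while DESeq2 called 664. Of the members, DESeq2 called 2 lower and 0 higher among the 23 that it gave an adjusted p, against 3.15% of all genes called lower and 0.983% called higher (4.13% in either direction). The 2 were Ryr1 and Xirp1, which the question had already named as lower, so this count is no independent result about the members. Among the 19 tested members the pools did not overlap in 6 that were lower, Ryr1, Xirp1, Neb, Casq1, Cacna1s and Myh7, and in 2 that were higher, Myl1 and Tnnt1. In all genes tested these shares were 24.5% and 21.6%, or 46.1% in either direction, so the members' 8 of 19 is near the background. The median log2 fold change of the 19 was -0.47, beside 0.01 over all genes tested. Members that passed the filter only where they were high had to differ, so these counts are a description.

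**Figure D2:**
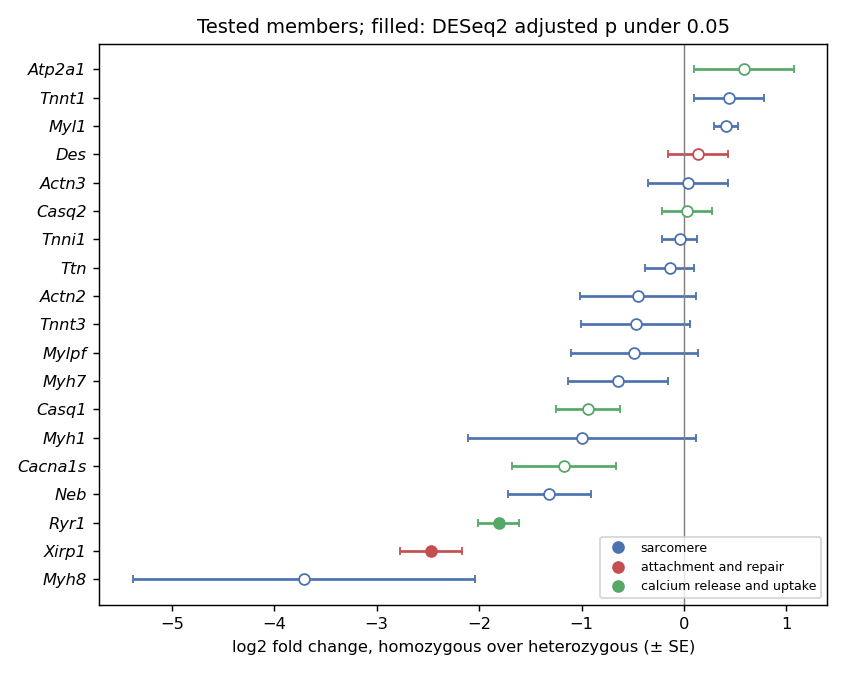
Log2 fold change, homozygous over heterozygous, with its standard error for the 19 tested members, coloured by role. Filled points passed DESeq2 at an adjusted p of 0.05, which were Ryr1 at -1.81 and Xirp1 at -2.47; Myh8 at -3.71 has the widest error.

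The partners of Ryr1 in calcium handling were split. Casq1, the calsequestrin of fast fibres (chromosome 1, 172209894 to 172219868), had 14.8 and 8.78 CPM in the heterozygous against 6.98 and 5.33 CPM in the homozygous pools. The genotypes did not overlap, and the heterozygous pools differed 1.69-fold between themselves (95% exact interval 1.46 to 1.96). The log2 fold change was -0.94 ± 0.31, and the adjusted p was 0.320 in edgeR and 0.134 in DESeq2. Cacna1s, the voltage sensor that gates Ryr1 in muscle, had 28 and 16 counts against 9 and 11, again without overlap, at -1.17 ± 0.51 on the log2 scale and a DESeq2 adjusted p of 0.788. Exons of Casq1 overlap Gm17224 and exons of Cacna1s overlap Gm37759, both on the opposite strand. Of their 31-base words, 5.03% (Casq1) and 18.1% (Cacna1s) occur in other genes.

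Atp2a1, the calcium pump of fast fibres, lay on the other side. It had 1.52 and 1.67 CPM in the heterozygous against 3.39 and 1.37 CPM in the homozygous pools, with 1 homozygous pool high and the other lowest of all. Its log2 fold change was 0.59 ± 0.49 and turned to -0.23 without homozygous replicate 1. Exons of Atp2a1 overlap Rabep2 on the opposite strand, and 20.3% of its 31-base words occur elsewhere. Casq2, the calsequestrin of heart and slow fibres, had 3.32 and 2.86 against 2.87 and 3.46 CPM, with overlapping pools and a log2 fold change of 0.03 ± 0.24.

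Ryr1 and Xirp1 were then set against the summed level of the contractile genes, of which Myl1 is the largest part in every pool. Single contractile genes separated the same pools in the same direction, namely Acta1, Neb and Myh7, and others in the opposite direction, namely Myl1, Tnnt1 and Tnni2. The fitted values of Acta1 (-2.23), Myh4 (-2.55) and Myh8 (-3.71) were as large as that of Ryr1 with wide errors and no call. The summed level of the 19 sarcomere members was 100 and 89.5 CPM in the heterozygous against 115 and 97.9 CPM in the homozygous pools, a log2 difference of 0.17 with overlapping pools. As a percentage of that sum, Ryr1 was 9.22 and 9.59 in the heterozygous against 2.40 and 2.35 in the homozygous pools, a log2 difference of -1.98. Xirp1 was 5.07 and 4.25 against 0.762 and 0.732 percent of the sum, a log2 difference of -2.64. In both, the genotypes did not overlap, and the exact two-sided permutation test over the 4 pools gave p = 0.333, the smallest that 2 pools against 2 allow. This test cannot reach 0.05. Ryr1 and Xirp1 had already been named as lower in these same pools, and the sum itself differed by only 0.17. The ratios therefore largely restate the genes' own log2 fold changes of -1.81 and -2.47 and are no independent result.

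Since Myl1 dominated the sum, the same ratio was taken without it, a choice made after seeing the data. The other 18 sarcomere members summed to 37.9 and 23.6 CPM in the heterozygous against 21.6 and 20.9 CPM in the homozygous pools, a log2 difference of -0.49. That direction is opposite to the one with Myl1, and heterozygous replicate 1 was the high pool. Ryr1 came to 24.4 and 36.4 percent of this smaller sum in the heterozygous and 12.8 and 11.0 percent in the homozygous pools, a log2 difference of -1.33. Xirp1 came to 13.4 and 16.1 against 4.07 and 3.42 percent, a log2 difference of -1.98. With either sum both genes had a smaller value in each homozygous pool than in either heterozygous pool. So did Neb, itself part of both sums, Casq1 and Cacna1s. Their log2 differences were -1.52, -1.07 and -1.32 with the full sum and -0.87, -0.41 and -0.66 without Myl1. With the full sum Des, Casq2, Atp2a1, Actn2 and Myh8 overlapped between genotypes and Myl1 was higher. The separation was therefore not particular to Ryr1 and Xirp1.

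**Figure D3:**
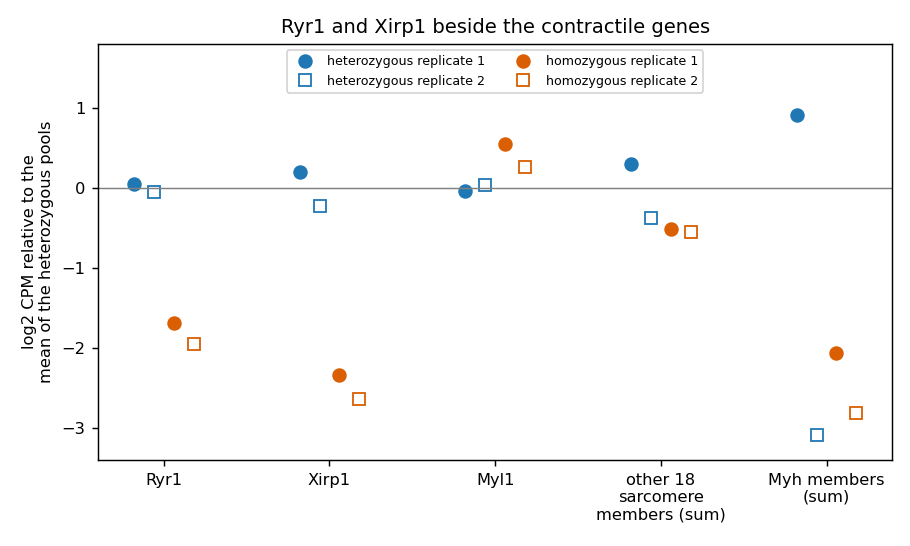
Log2 CPM of each pool relative to the mean of the heterozygous pools for Ryr1, Xirp1, Myl1, the sum of the other 18 sarcomere members and the sum of the 6 Myh members. Ryr1 and Xirp1 are low in both homozygous pools, Myl1 is high there, and the Myh sum is high in heterozygous replicate 1 (13.6 CPM) and low in the other 3 pools.

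Within the heterozygous genotype most measured contractile genes, like Ryr1 and Xirp1, did not share the spread of Myh8, Myh4 and Myh1. Heterozygous replicate 1, which held 58.1 times the Myh8 level of replicate 2, held 1.08 times its Ryr1 level (95% exact interval 0.915 to 1.27) and 1.34 times its Xirp1 level (1.06 to 1.70). This ratio was 0.947 (0.892 to 1.01) for Myl1, 0.885 (0.755 to 1.04) for Tnni1, 1.10 (0.855 to 1.41) for Ttn and 1.52 (1.19 to 1.95) for Neb, so Ryr1 and Xirp1 lay within the range of these contractile genes. Between the homozygous pools Ryr1 differed 1.20-fold (0.884 to 1.64) and Xirp1 1.23-fold (0.702 to 2.18), within counting error.

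**Figure D4:**
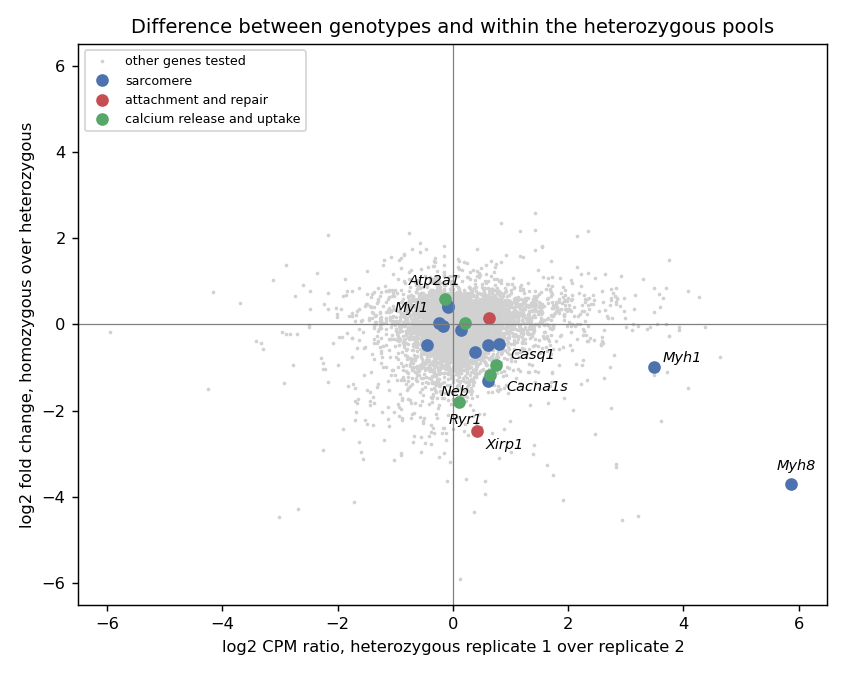
For each gene tested, the log2 CPM ratio of the 2 heterozygous pools (x axis) against the log2 fold change between genotypes (y axis), which shares the heterozygous pools with it. Grey points are other genes; Ryr1 and Xirp1 lie low near the middle, and Myh8 lies far right at -3.71.

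Further genes of the muscle apparatus, listed by role, were examined beside the members. Of 38 other sarcomere and Z-disc genes 23 were tested, and 3 fell and 0 rose by DESeq2. Myh7b, a slow-type myosin heavy chain that is also made outside muscle (chromosome 2, 155611212 to 155634307), had the smallest adjusted p of them. It had 3054 and 2162 counts in the heterozygous against 992 and 683 in the homozygous pools, or 85.8 and 68.0 against 25.7 and 21.3 CPM. Its log2 fold change of -1.71 ± 0.16 (edgeR adjusted p = 0.107, DESeq2 1.24e-15) was close to that of Ryr1, and its DESeq2 call held with each pool left out. Smpx, a small muscle protein gene also known from inherited deafness in humans, had 122 and 35 against 4 and 12 counts (log2 fold change -3.27 ± 0.85, DESeq2 adjusted p = 0.0137, and 0.190 without homozygous replicate 1). Heterozygous replicate 1 was its highest pool, and without it the log2 fold change was -2.22 in edgeR and DESeq2 gave no adjusted p.

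Trim54, a ubiquitin ligase of the Z-disc, had 35 and 37 against 7 and 2 counts (log2 fold change -3.06 ± 0.58). Its DESeq2 adjusted p of 0.0316 rose above 0.05 without heterozygous replicate 2 (0.9999), homozygous replicate 1 (0.149) or homozygous replicate 2 (0.697), and DESeq2 gave none without heterozygous replicate 1. Its midpoint lies 0.713 Mb from that of Otof on chromosome 5, and none of the 31 members is on that chromosome. The Z-disc gene Csrp3 and the ubiquitin ligase gene Trim55 were at 0 in all pools, and Actc1, cardiac actin, was at 0 in at least 1. The median log2 fold change of the 23 tested was -0.20.

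In the calcium lists, Srl and Pvalb fell by DESeq2 among 12 tested excitation-contraction coupling genes and 0 rose. Srl, sarcalumenin, a calcium-binding protein of the reticulum lumen, had 15.9 and 13.6 CPM in the heterozygous against 7.35 and 7.20 CPM in the homozygous pools, a log2 fold change of -1.02 ± 0.15. Its DESeq2 adjusted p of 3.11e-04 was 0.0653 to 0.432 with any single pool left out. Pvalb, parvalbumin, a calcium buffer of fast fibres and also of neurons, had 447 and 444 against 288 and 245 CPM (-0.74 ± 0.11, DESeq2 adjusted p = 2.59e-06). Sln, sarcolipin, was at 0 in all pools. Of 9 other calcium-release and store genes, Jph4, a neuronal junctophilin, rose by DESeq2 (27.8 and 35.8 against 62.8 and 64.6 CPM, log2 fold change 1.0 ± 0.14), and 0 fell. The other ryanodine receptors did not pass, Ryr2 at -0.96 ± 0.32 and Ryr3 at -0.75 ± 0.41.

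Genes of muscle energy supply fell in 2 of 12 tested by DESeq2, and 0 rose. Pfkm, muscle phosphofructokinase, had 235 and 230 against 179 and 166 CPM (log2 fold change -0.43 ± 0.08, DESeq2 adjusted p = 0.00530), which became 0.634, 0.679 and 0.276 without heterozygous replicates 1 and 2 and homozygous replicate 2. Cox8b, a cytochrome oxidase subunit of heart and muscle, had 2.42 and 0.912 against 0.259 and 0.218 CPM (-2.78 ± 0.63, DESeq2 adjusted p = 0.0248). Without heterozygous replicate 2 and homozygous replicates 1 and 2 that p was 0.133, 0.196 and 0.431, and without heterozygous replicate 1 DESeq2 gave none. Of 9 tested genes of the neuromuscular junction and fibre membrane 1 fell, Colq, the collagen tail that anchors acetylcholinesterase, at -0.78 ± 0.18 (DESeq2 adjusted p = 0.0392). That p was 0.0705 to 0.864 with 1 pool left out.

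None of the 10 tested myogenic and satellite cell genes passed DESeq2 or edgeR's adjusted p, and 2 had an unadjusted edgeR p under 0.05. Pax7, the marker of satellite cells, and the myogenic factor Myf6 were at 0 in all pools. Likewise 0 of 13 smooth muscle and pericyte genes, 0 of 5 tendon genes and 0 of 2 cardiac genes tested passed DESeq2 or edgeR's adjusted p, with 1, 0 and 0 at an unadjusted edgeR p under 0.05. The summed level of the 7 cardiac markers was 0.957 to 1.78 CPM over the pools, with Myl7 and Nkx2-5 at 0 in all of them.

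**Figure D5:**
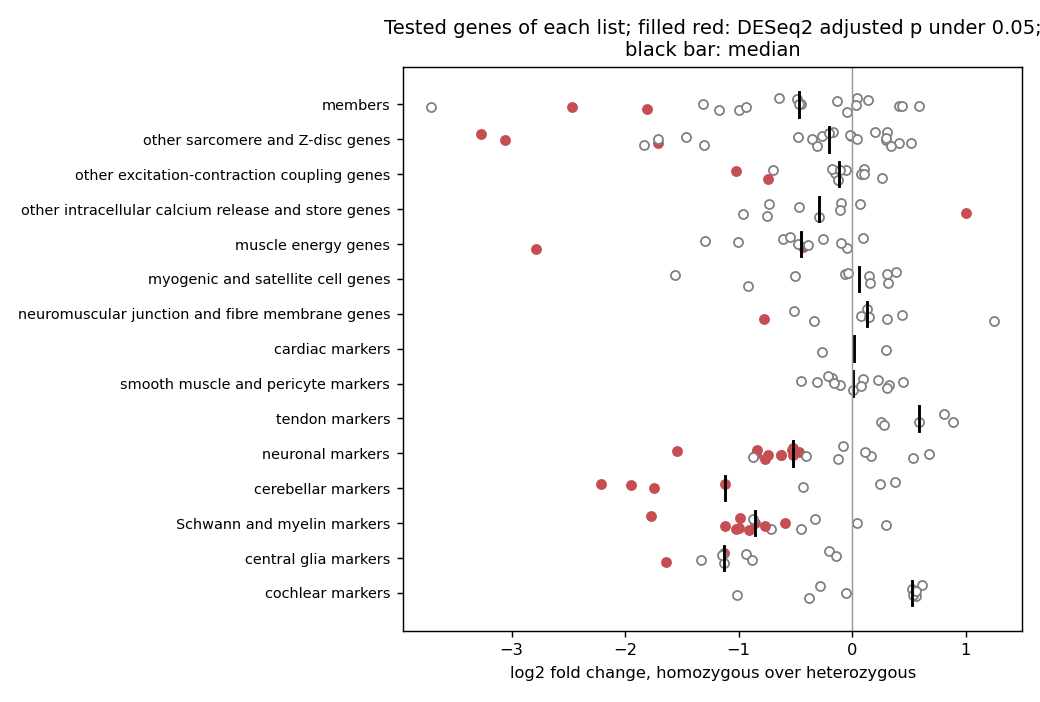
Log2 fold change, homozygous over heterozygous, of each tested gene in the members and in each list, with a black bar at the median and red points for a DESeq2 adjusted p under 0.05. Among the members, Ryr1 and Xirp1 are the red points; the neuronal, Schwann and cerebellar lists lie mostly to the left of 0.

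Markers of some other cell types were lower in the homozygous pools, like Ryr1 and Xirp1, and those of others were not. The median log2 fold change was 0.59 for tendon, 0.52 for cochlear, 0.002 for smooth muscle and pericyte and 0.01 for cardiac markers. All lists were chosen with earlier results of these data known, and 3.15% of all genes fell by DESeq2. Of 19 neuronal markers 10 fell and 0 rose by DESeq2, and their summed level was 9187 and 9010 CPM in the heterozygous against 6524 and 6210 CPM in the homozygous pools, with 0 markers at 0. Of 15 Schwann and myelin markers 9 fell and 0 rose, at 45207 and 46897 against 28241 and 23418 CPM in sum. Of 9 cerebellar markers 4 fell among 7 tested. Their sums were 198 and 171 against 169 and 158 CPM, with the Purkinje cell marker Pcp2 and the granule cell marker Gabra6 at 0 in at least 1 pool. Central glia markers summed to 1762 and 1658 CPM in the heterozygous pools and to 1463 and 468 CPM in homozygous replicates 1 and 2, and 2 of 9 fell.

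The median log2 fold changes of these lists were -0.53 (neuronal), -0.86 (Schwann and myelin), -1.12 (cerebellar) and -1.13 (central glia). Ryr1 at -1.81 and Xirp1 at -2.47 lay below all of them, while single markers reached similar values, such as Slc17a6, a vesicular glutamate transporter of neurons, at -1.55 ± 0.16, and Cbln3, a cerebellin, at -1.75 ± 0.20. Without heterozygous replicate 1 the DESeq2 adjusted p of Cbln3 was 0.0942, and without replicate 2 it was 0.0905. The part of these cell types in the levels of Ryr1 and Xirp1 was not tested.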

How the data were processed

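Per the labels' protocols, RNA with integrity values above the submitters' limit was selected on poly-T beads and copied with random primers. Whether strand was kept is not stated in the labels. The deposited table holds the authors' estimated counts per gene, made with Salmon on mm10 per the submitters' processing notes and within an nf-core pipeline per the series' design text, whose versions these sources do not state. Between 92.4% and 92.8% of its values per pool were whole, and 27 symbols had become dates. A second table, deposited by the authors, holds their DESeq2 comparison with log2 fold changes, a Wald score, p-values and the mean normalised signal, per the file headers.

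Counts were rounded and tested with edgeR 4.0.16 (quasi-likelihood F test, TMM, filterByExpr, genotype as the only term, R 4.3.3), with Benjamini-Hochberg adjustment over 15359 genes. The standard error is that implied by the F statistic. DESeq2 1.42.0 was the other test, and fell and rose refer to its adjusted p under 0.05. The sarcomere ratio used the exact permutation test over pools. The labels do not say that pools are separate litters, so p-values measure the spread between these pools. Replicates differed by more than counting noise (chi-square over degrees of freedom, 28.7 heterozygous, 47.3 homozygous). Positions, exon lengths and shared 31-base words come from GENCODE M21 (GRCm38), and the annotation the authors used may differ.

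On data simulated for this comparison edgeR recovered 71% of genes changed by 1 and 95% of those changed by 2 on the log2 scale (15226 genes tested), and DESeq2 86% and 97% (14763). Changes were simulated only in genes above a set mean level, which Xirp1 and most members did not reach. Recovery at the lower levels of these members was not simulated. Counts were drawn at the dispersion fitted to each gene. On the pools themselves edgeR called 0 of 15359 genes, so the simulated recovery cannot be taken as that of the real fit. Genes simulated without a change gave 28 false calls in edgeR and 58 in DESeq2. The members and lists were chosen with earlier results of these data known. Given in full are Ryr1, Xirp1, members past DESeq2, the 8 highest per kilobase, the 3 lowest and 3 highest fold changes, the partners Myod1, Myog, Xirp2, Casq1, Cacna1s and Atp2a1, and up to 3 genes per list past DESeq2. Other members were named after their values were seen. Alternatives were other scaling (RLE, upper quartile), no filter or at least 1 CPM in 2 pools, a replicate block, leaving out each pool, and other forms of the sarcomere sum.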

Additional observations from a re-analysis of the deposited data

How the results depend on the processing

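edgeR called 0 genes and 0 members under RLE or upper quartile scaling and under both other filters, and 0 to 60 genes and 0 members with a pool left out. With a replicate block it called 495 genes and 2 members. Ryr1 was then at -1.81 and Xirp1 at -2.47 on the log2 scale, past the threshold. The replicate numbers are not stated to pair the pools (deviations of the pools numbered 1 correlated at r = 0.375 over genes), so the block is no better supported than the fit without it. DESeq2 called 664 genes and 2 members, with Ryr1 at -1.80 and Xirp1 at -2.47, and with the block 600 and 2. With a pool left out it called 169 to 686 genes and 0 to 3 members. There Ryr1 ranged from -1.95 to -1.68 and Xirp1 from -2.67 to -2.24, and both lost the call without heterozygous replicate 1. The third member was Myh8, without heterozygous replicate 2. The lone pool of a genotype is then assumed to vary like the other.

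The sarcomere difference of 0.17 was -0.38 as a mean of log2 (CPM + 0.1), 0.31 per kilobase, -0.49 without Myl1 and -0.31 without Myl1 and Myh8, and 0.05 to 0.28 with a pool left out. Relative to it, Ryr1 was at -1.44, -2.13, -1.33 and -1.51 under the same forms and at -2.04 without Ttn and Neb, against -1.98. Xirp1 was at -2.09, -2.78, -1.98 and -2.16, against -2.64. Both stayed below 0 in every form run. With a pool left out the direction turned for Tnni1 (-0.16 to 0.067 in edgeR, -0.16 to 0.075 in DESeq2), Des (-0.14 to 0.48, -0.14 to 0.49), Casq2 (-0.10 to 0.15, -0.10 to 0.16), Atp2a1 (-0.23 to 1.10, -0.22 to 1.10), Actn3 (-0.40 to 0.38, -0.40 to 0.39) and Myh8 (-4.68 to 1.15, -4.70 to 1.17). No direction turned under scaling, filters or the block for the 30 other genes recomputed. The cause was not tested. With 2 pools per genotype, and counts under 20 for many members, small differences were not detectable at this depth.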
